A study of Homo sapiens with 18 samples.

Results

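Titanium dioxide (TiO2) is a mineral pigment that cells in culture can take up as particles, which can then pass to lysosomes. The input RNA of cells exposed to 100 mg/L TiO2 for 24 h was compared with that of untreated cells, with 3 input libraries in each group. The comparison covers the 12224 genes, of 36576 in the expression table, whose mean over the 9 input libraries was at least 1 FPKM (fragments scaled by transcript length and library size). The cells are labelled A549, a human line from a lung adenocarcinoma, and were grown in DMEM/F-12 medium. Another group of 3 input libraries came from cells given 10 mg/L BPQD, the second nanomaterial of the study, also for 24 h. The untreated cells received no material, and the labels give no vehicle, particle size or crystal form. Each of the 3 groups also has 3 m6A immunoprecipitation libraries, which measure methylated RNA, so that the series holds 18 libraries. The labels do not say that the 3 libraries of a group came from separate cultures, so p-values measure the spread between these libraries, which may be technical.

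Read counts are not given in the expression table. The smallest steps of the FPKM values gave each library's depth relative to the first untreated one: 0.91 to 1 in untreated, 1.04 to 1.13 in TiO2 and 0.794 to 1.03 in BPQD libraries. The summed FPKM ran from 221580 to 222818 in untreated and from 219458 to 219676 in TiO2 libraries, so the groups differ slightly in both measures. The label was checked against genes known to be abundant in A549. Of 16 such genes in the table, 8 had a mean under 1 FPKM, among them the aldo-keto reductases AKR1B10, AKR1C1 and AKR1C2 and the aldehyde dehydrogenase ALDH1A1. The highest level in any input library was 0.998 FPKM for AKR1B10, 1.14 for AKR1C1, 0.139 for AKR1C2 and 0.116 for ALDH1A1. The other 8 were expressed, among them the related AKR1C3 and ALDH3A1. In the untreated libraries AKR1C3 read 5.02, 5.32 and 4.73 FPKM and ALDH3A1 2.78, 2.44 and 2.50 FPKM. All genes of the list together summed to 1052 to 1162 FPKM there. The cell cycle inhibitor gene CDKN2A, which A549 is known to have lost and which was looked up after other values were seen, read 22.7, 22.4 and 27.4 FPKM in untreated and 21.6, 20.5 and 20.6 FPKM in TiO2 libraries. The epithelial keratins KRT8, KRT18 and KRT7 were abundant, whereas CDH1, the epithelial cadherin, reached at most 0.409 FPKM. The levels of AKR1B10, AKR1C1, AKR1C2, ALDH1A1 and CDKN2A go against the label, although other genes of the list were expressed. The cells are called the cells labelled A549 throughout.

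TiO2 changed many genes by small amounts. At an adjusted p under 0.05, 4614 genes differed from untreated, or 37.7% of those tested. Of these, 2111 were higher (17.3%) and 2503 lower (20.5%). The median size of a called change was 0.25 on the scale of log2(FPKM + 1), which is used for every fold change here and which understates the change of weakly expressed genes. Only 20 genes rose by 1 or more on that scale and 20 fell by as much. The shares differed between gene classes: of 9994 protein-coding genes 19.6% rose and 21.3% fell, and of 369 long noncoding RNAs 7.05% rose and 18.4% fell. Each gene list below is read against 17.3% higher and 20.5% lower among all genes tested, whose median change was -0.02. For lists of protein-coding genes, 19.6% higher and 21.3% lower is the closer reference.

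**Figure D1:**
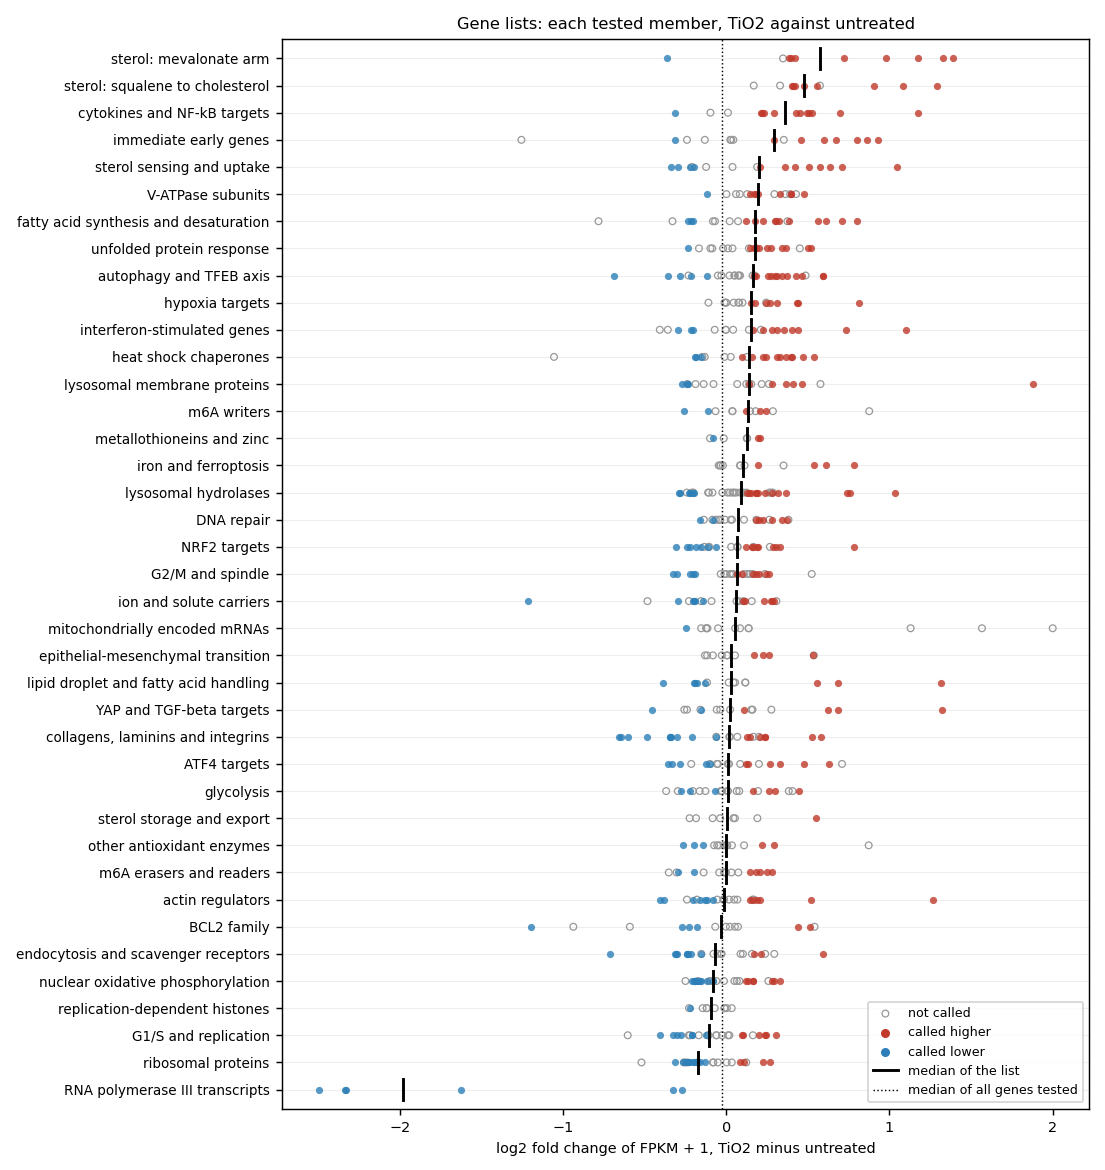
Log2 fold change of FPKM + 1, TiO2 minus untreated, for every tested member of each gene list shown, ordered by the list median (black bar). Red and blue points passed the adjusted p of 0.05, open points did not; the lists of sterol synthesis lie at the top with medians of 0.57 and 0.48, and the RNA polymerase III transcripts at the bottom with -1.98.

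Cholesterol is built from acetyl-CoA through mevalonate, farnesyl diphosphate and squalene. When sterol in the endoplasmic reticulum is low, the escort protein SCAP carries the SREBP transcription factors to the Golgi, where they are cut and released to activate the synthesis genes and genes of sterol uptake; INSIG proteins hold SCAP back when sterol is high. The pathway is therefore read through its enzymes and then its sensors and uptake genes.

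The enzymes that make cholesterol were higher in TiO2 at most steps. Of 10 tested genes of the mevalonate arm 8 rose and 1 fell, with a list median of 0.57. Of 11 tested genes from squalene to cholesterol 8 rose and none fell, with a median of 0.48. Over both lists, 18 of 21 genes had no overlap between the 3 TiO2 and the 3 untreated libraries, against 51.7% of all genes tested. Their summed level was 245 to 261 FPKM in untreated and 383 to 429 FPKM in TiO2 libraries, with an exact two-sided permutation p of 0.1, the smallest that 3 against 3 libraries can give.

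ACAT2, which joins acetyl-CoA units in the cytosol, read 13.6, 14.3 and 14.5 FPKM in the untreated libraries and 38.8, 38.7 and 38.6 FPKM in the TiO2 libraries. The next enzyme, the HMG-CoA synthase HMGCS1, read 13.6, 13.1 and 13.1 FPKM in untreated and 35.3, 33.1 and 36.1 FPKM in TiO2 libraries. Both pairs of groups lay far apart, and the changes of 1.39 ± 0.03 and 1.33 ± 0.06 were behind that of GPNMB the largest rises among named genes (adjusted p = 1.81e-07 and 6.17e-06). The kinase MVK rose by 0.42 ± 0.04 and the decarboxylase MVD by 0.40 ± 0.06, both from levels under 4 FPKM. PMVK, the kinase between them, fell from 31.03, 32.1 and 30.6 to 24.4, 22.8 and 25.1 FPKM (-0.36 ± 0.04), and was thus the 1 enzyme of the arm that went the other way. The isomerase IDI1 read 4.41, 4.34 and 4.48 FPKM in untreated and 9.92, 13.9 and 10.2 FPKM in TiO2 libraries. The farnesyl diphosphate synthase FDPS rose less, from 38.9, 38.3 and 38.1 to 52.2, 49.2 and 50.4 FPKM. FDFT1, which makes squalene, read 17.6, 13.01 and 14.3 FPKM in untreated and 33.1, 24.8 and 33.7 FPKM in TiO2 libraries, with a wide spread in both groups and no overlap. GGPS1, which leads away from sterols to geranylgeranyl diphosphate, read 4.93, 7.86 and 8.51 FPKM and 8.65, 9.04 and 9.64 FPKM and did not pass the test.

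After squalene, the largest rise was that of the sterol methyl oxidase MSMO1, from 4.88, 4.85 and 5.31 FPKM to 13.8, 14.4 and 13.00 FPKM (1.29 ± 0.05, adjusted p = 3.69e-06). Squalene epoxidase (SQLE), which adds the first oxygen, read 6.11, 5.71 and 6.07 FPKM in untreated and 13.6, 14.1 and 13.6 FPKM in TiO2 libraries. The lanosterol demethylase CYP51A1 read 13.8, 14.7 and 13.8 FPKM in untreated and 26.3, 28.3 and 27.1 FPKM in TiO2 libraries. In each of these 3 enzymes the groups were tight and lay well apart. The cyclase LSS rose by 0.56 ± 0.05, SC5D by 0.48 ± 0.06, HSD17B7 by 0.41 ± 0.06 and NSDHL by 0.40 ± 0.06. DHCR7, the last enzyme of one branch, read 9.03, 9.35 and 7.59 FPKM and 15.1, 10.03 and 11.1 FPKM; its adjusted p of 0.0482 was close to the threshold. Without the first TiO2 library its change was 0.27 with an adjusted p of 0.0837. The call of DHCR7 was lost in 12 of 18 alternatives, of which 8 left out a library. The fit of only the 6 TiO2 and untreated libraries also lost it. EBP read 15.5, 16.01 and 15.2 FPKM and 20.5, 13.04 and 20.5 FPKM, with the second TiO2 library below the others, and LBR read 14.6, 9.75 and 9.81 FPKM and 15.3, 16.9 and 11.3 FPKM; neither passed.

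**Figure D2:**
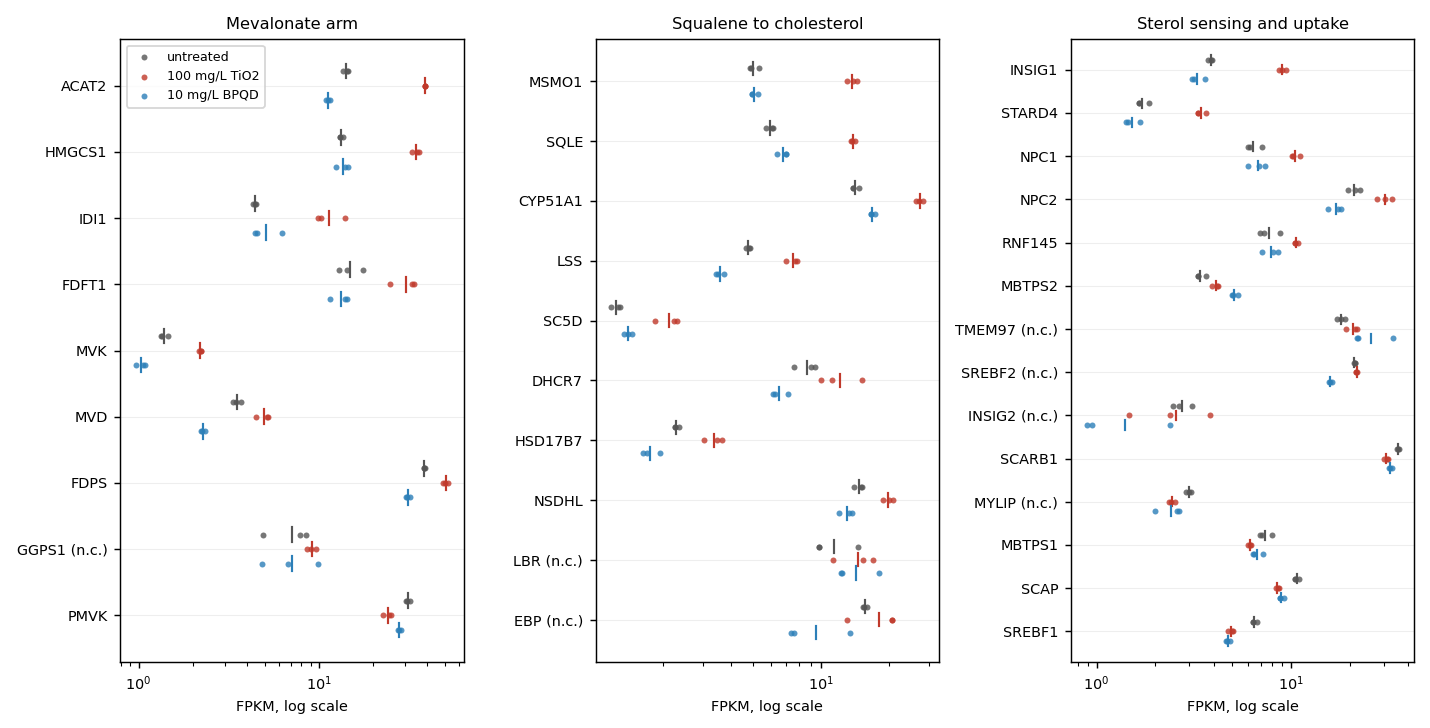
FPKM on a log scale of tested genes of 3 sterol lists in each input library (points) with the group mean (bar); untreated grey, TiO2 red, BPQD blue, and n.c. for a gene not called in TiO2 against untreated. For ACAT2, HMGCS1, MSMO1, SQLE and INSIG1 the red points lie to the right of both other groups, while PMVK, SCAP and SREBF1 lie to the left of untreated.

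Since these genes moved together, their promoters were read for the letters of 3 motifs on both strands, in the 300 bases from 250 before to 50 after the RefSeq start (GRCh38.p14). CCAAT, the core letters bound by NF-Y, was present in 11 of 16 sterol synthesis promoters found in the table (68.8%) and in 37.4% of the 8591 promoters of tested genes. TCACNCCAC, a form of the sterol regulatory element, was in none of the 16 and in 1.14% of all. Among the genes of sterol sensing and uptake it was in 1 of 13 promoters, that of SREBF2. Only these exact letters were searched, so other forms of the element were not read. TCACGTGA, a palindrome bound by E-box factors such as TFEB, was in none of the 16 and in 2.07% of all; it shares the letters TCAC with the former motif, and neither contains CCAAT. The promoters of the synthesis genes HMGCS1 and MSMO1, which rose most among those with a sequence, and of INSIG1 are shown because they hold these letters in different numbers. HMGCS1 (chr5:43313363-43313662, minus strand) has 2 CCAAT matches, MSMO1 (chr4:165327419-165327718, plus strand) has 4, and INSIG1 (chr7:155297628-155297927, plus strand) has 1 with 1 TCACGTGA; capitals mark CCAAT, its reverse ATTGG, and TCACGTGA.
HMGCS1: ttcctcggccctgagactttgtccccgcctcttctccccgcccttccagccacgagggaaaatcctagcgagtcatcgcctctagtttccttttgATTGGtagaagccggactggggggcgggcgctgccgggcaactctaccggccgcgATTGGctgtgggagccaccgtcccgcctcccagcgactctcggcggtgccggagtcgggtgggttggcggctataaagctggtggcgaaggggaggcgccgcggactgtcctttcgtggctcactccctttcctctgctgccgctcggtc
MSMO1: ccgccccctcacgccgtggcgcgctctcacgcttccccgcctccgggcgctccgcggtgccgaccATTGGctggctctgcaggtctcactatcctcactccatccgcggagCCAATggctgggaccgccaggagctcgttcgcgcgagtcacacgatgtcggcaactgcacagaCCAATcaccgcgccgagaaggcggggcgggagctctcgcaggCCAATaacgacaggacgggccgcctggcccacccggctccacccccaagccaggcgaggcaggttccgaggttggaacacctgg
INSIG1: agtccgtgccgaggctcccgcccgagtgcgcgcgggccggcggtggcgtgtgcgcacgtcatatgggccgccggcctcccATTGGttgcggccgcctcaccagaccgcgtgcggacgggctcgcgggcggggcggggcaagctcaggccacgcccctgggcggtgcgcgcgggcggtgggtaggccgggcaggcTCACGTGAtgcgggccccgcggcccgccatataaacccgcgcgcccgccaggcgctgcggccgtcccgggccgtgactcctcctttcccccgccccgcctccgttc

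The genes that sense and take up sterol went both ways. Of 16 tested, 8 rose and 4 fell, and the median was 0.20. INSIG1, itself a target of SREBP, rose most, from 3.94, 3.76 and 3.88 FPKM to 8.67, 9.02 and 9.41 FPKM (1.05 ± 0.05, adjusted p = 1.12e-05). The lysosomal cholesterol exporters NPC1 and NPC2 rose by 0.63 ± 0.08 and 0.51 ± 0.08, and the sterol carrier STARD4 by 0.71 ± 0.06. RNF145, a ubiquitin ligase of the endoplasmic reticulum, rose by 0.42 ± 0.09. The genes of SCAP and of the SREBPs themselves did not rise. SREBF2, the gene of the SREBP that drives sterol synthesis, read 21.02, 21.3 and 21.3 FPKM in untreated and 21.7, 21.95 and 21.7 FPKM in TiO2 libraries (adjusted p = 0.196). SREBF1 fell from 6.37, 6.41 and 6.68 to 5.03, 4.72 and 4.99 FPKM, and SCAP from 11.04, 10.5 and 10.5 to 8.63, 8.32 and 8.58 FPKM. Of the proteases that cut SREBP, MBTPS1 fell by 0.22 and MBTPS2 rose by 0.21 on this scale; the call of MBTPS1 was lost without the second TiO2 library (adjusted p = 0.0625) and without the third (0.0552). SCARB1, the receptor for HDL, fell by 0.20. Of 8 tested genes of sterol storage and export 1 rose, the lysosomal acid lipase LIPA, from 14.3, 13.1 and 13.4 FPKM to 19.5, 20.96 and 20.6 FPKM; without the first untreated library 2 rose and 1 fell. The efflux genes ABCA1, ABCG1 and APOE had a mean under 1 FPKM and were not tested.

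Of 21 tested genes of fatty acid synthesis and desaturation 11 rose and 3 fell (median 0.18). ACSS2, which makes acetyl-CoA from acetate, read 5.63, 5.41 and 5.44 FPKM in untreated and 10.6, 9.89 and 10.5 FPKM in TiO2 libraries. The desaturase SCD read 59.7, 59.1 and 58.6 FPKM and 97.1, 98.1 and 96.9 FPKM, a change of 0.71 ± 0.02. The acyl-CoA synthetases ACSL4, ACSL3 and ACSL1 rose by 0.61 ± 0.03, 0.56 ± 0.09 and 0.33 ± 0.07, and the elongase ELOVL6 by 0.39 ± 0.04. The synthase itself, FASN (-0.07 ± 0.03, adjusted p = 0.0756), and the carboxylase ACACA (0.02 ± 0.04, adjusted p = 0.723) did not pass. TECR, a reductase of fatty acid elongation, was among the 3 that fell, by 0.22 on this scale.

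Of 14 genes of lipid droplets and fatty acid handling 3 rose and 5 fell. FABP3, a fatty acid binding protein, read 8.17, 8.13 and 9.33 FPKM in untreated and 22.3, 23.3 and 22.6 FPKM in TiO2 libraries (1.32 ± 0.05, adjusted p = 5.39e-06). PLIN2, which coats lipid droplets, rose from 11.1, 10.6 and 11.2 FPKM to 18.2, 17.97 and 18.6 FPKM, and ANGPTL4, an inhibitor of lipoprotein lipase, by 0.56 ± 0.09. Among the 5 that fell were the lipases PNPLA2 (-0.39 ± 0.05) and MGLL (-0.19 ± 0.02) and the carnitine transferase CPT2 (-0.20 ± 0.05).

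Lysosomes degrade material brought in by endocytosis and autophagy; their hydrolases work in an acid lumen, which the V-ATPase proton pump maintains. The transcription factors TFEB and TFE3 bind the letters of the TCACGTGA box in front of many of these genes.

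The largest rise among the named genes was in a lysosomal membrane protein. GPNMB, a glycoprotein known to rise in cells with loaded lysosomes, read 1.51, 1.23 and 1.31 FPKM in untreated and 7.61, 7.41 and 7.86 FPKM in TiO2 libraries (1.88 ± 0.06, adjusted p = 1.14e-06). The groups were several-fold apart, with little spread within either. Of 20 tested lysosomal membrane genes 6 rose and 3 fell (median 0.14). LAMP2 rose by 0.46 ± 0.03, the sialic acid exporter SLC17A5 by 0.41 ± 0.04 and OSTM1, the partner of a chloride channel, by 0.37 ± 0.06. The 3 that fell were TMEM175, SIDT2 and TPCN1; without the first or the third untreated library only 1 fell.

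Of 38 tested lysosomal hydrolases 13 rose and 6 fell (median 0.09). The protease cathepsin L (CTSL) read 80.3, 80.1 and 80.7 FPKM in untreated and 164, 167 and 167 FPKM in TiO2 libraries (1.04 ± 0.02, adjusted p = 8.91e-08). The sialidase NEU1 read 3.74, 3.60 and 3.72 FPKM and 7.24, 6.61 and 6.90 FPKM. Called rises of other hydrolases were smaller, among them GLA (0.32 ± 0.04) and PSAP (0.13 ± 0.02). The glucosidase GAA (-0.28 ± 0.06) and the protease CTSZ (-0.23 ± 0.02) were among the 6 that fell. Without the second TiO2 library 9 hydrolases rose and 3 fell.

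CD68, a lysosomal glycoprotein that also serves as a macrophage marker, read 12.8, 11.4 and 10.8 FPKM in untreated and 20.1, 22.9 and 17.3 FPKM in TiO2 libraries. It was the 1 member tested of 10 leukocyte and macrophage markers in the table. The summed level of the 10 was 12.01 to 14.1 FPKM in untreated and 19.6 to 23.9 FPKM in TiO2 libraries. Of the other 9, the highest level in any of the 9 input libraries was 1.14 FPKM for HLA-DRA and 0.0346 FPKM for PTPRC, the leukocyte antigen CD45. The defining markers were thus at or near 0 in both groups.

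The proton pump rose at many subunits by small amounts. Of 17 tested V-ATPase subunits 8 rose and 1 fell, and 16 had a positive value (median 0.20). ATP6V1G1 read 49.4, 48.4 and 48.1 FPKM in untreated and 68.2, 69.3 and 66.8 FPKM in TiO2 libraries. ATP6V0E1 read 76.01, 76.6 and 75.04 FPKM and 101, 99.3 and 101 FPKM. ATP6V1B2 rose by 0.33 ± 0.03 and the catalytic subunit ATP6V1A by 0.20 ± 0.02. The 1 that fell, ATP6V0E2, changed by -0.12 ± 0.04, and its call was lost in 14 of the alternatives.

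Among autophagy and TFEB genes 12 of 29 rose and 5 fell (median 0.16). The cargo receptor SQSTM1 (p62) read 57.7, 57.98 and 57.95 FPKM in untreated and 88.7, 87.6 and 86.7 FPKM in TiO2 libraries. RRAGC, a GTPase that brings mTORC1 to the lysosome, rose by 0.59 ± 0.05, and FLCN and FNIP1, which form the complex that acts on it, by 0.34 ± 0.03 and 0.37 ± 0.04. WIPI1 and ATG3, which act in the making of the autophagosome, rose by 0.46 ± 0.06 and 0.43 ± 0.03. The kinase that starts autophagy, ULK1, fell from 9.89, 9.99 and 9.52 FPKM to 5.74, 5.69 and 5.70 FPKM (-0.69 ± 0.03). TFEB and TFE3 fell by 0.35 and 0.28 on this scale, and MITF did not pass (-0.03 ± 0.04).

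TCACGTGA lay in 9 of 55 promoters of tested lysosomal hydrolases, membrane proteins and V-ATPase subunits (16.4%), against 2.07% of all 8591. CCAAT was in 40.0% of the 55, near its share among all promoters, and TCACNCCAC in none. ATP6V1G1 (chr9:114587519-114587818, plus strand), which rose, and GAA (chr17:80101331-80101630, plus strand), which fell, are shown as 2 of the 9, because they hold the same letters; capitals mark TCACGTGA and, where present, CCAAT.
ATP6V1G1: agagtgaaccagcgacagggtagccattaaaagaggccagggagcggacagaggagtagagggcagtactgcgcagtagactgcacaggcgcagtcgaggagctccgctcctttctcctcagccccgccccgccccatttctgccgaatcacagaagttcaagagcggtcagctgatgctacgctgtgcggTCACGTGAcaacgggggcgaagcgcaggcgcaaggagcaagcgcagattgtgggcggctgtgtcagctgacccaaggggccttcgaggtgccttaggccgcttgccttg
GAA: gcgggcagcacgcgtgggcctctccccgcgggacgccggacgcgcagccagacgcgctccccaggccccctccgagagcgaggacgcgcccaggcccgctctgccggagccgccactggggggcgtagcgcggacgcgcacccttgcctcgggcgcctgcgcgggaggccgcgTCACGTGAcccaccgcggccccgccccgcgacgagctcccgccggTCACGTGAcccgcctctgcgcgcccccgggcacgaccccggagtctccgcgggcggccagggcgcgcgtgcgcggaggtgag
Of the other 7, GALNS, LAMP1, CLN3, MCOLN1 and ATP6V0D1 did not pass the expression test. SCPEP1 rose by 0.20 ± 0.06, a call lost without any 1 of the TiO2 libraries, and by 0.12 without the third untreated library. CTSA rose by 0.14 ± 0.04, a call lost without the second TiO2 or the second untreated library (highest adjusted p over the alternatives 0.0918). The box was thus found both in genes that rose and in genes that did not. The promoters of CTSL, NEU1 and GPNMB do not have these exact letters in the window.

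Of 22 tested genes of endocytosis and scavenger uptake 3 rose and 9 fell (median -0.07). LRP1, a large receptor that clears lipoproteins and proteases, fell from 12.96, 13.1 and 12.9 FPKM to 7.48, 7.56 and 7.68 FPKM (-0.71 ± 0.02, adjusted p = 2.31e-06). The clathrin adaptor subunits AP2M1, AP2A1 and AP2A2 fell by 0.31, 0.31 and 0.22 on this scale. CAVIN1, which coats caveolae, fell by 0.24. RAB7A, the GTPase of late endosomes, read 99.6, 107 and 63.02 FPKM and 140.2, 135 and 124 FPKM; its change was 0.59 ± 0.18, and 0.36 without the third untreated library. Its call was lost without any 1 of the TiO2 libraries (adjusted p of 0.0558 to 0.0883). The scavenger receptors MSR1 and MARCO had a mean under 1 FPKM.

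**Figure D3:**
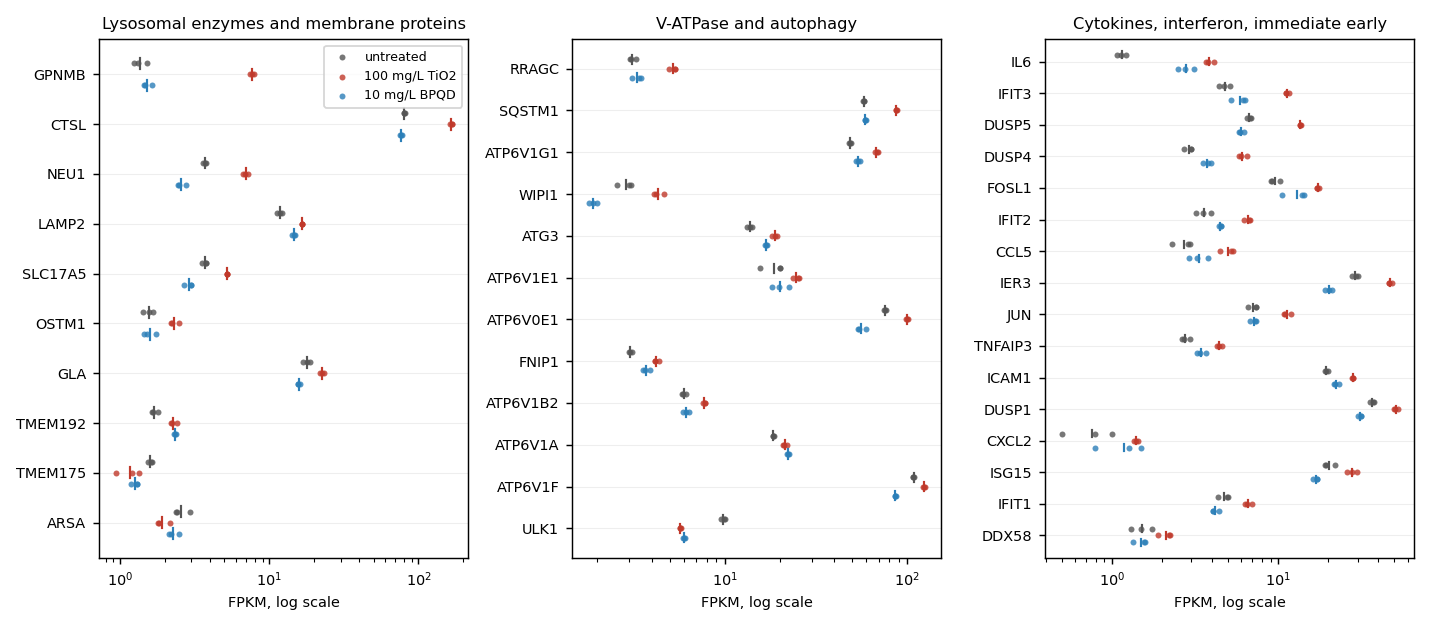
FPKM on a log scale of called genes of the lysosome, of the V-ATPase and autophagy, and of the cytokine, interferon and immediate early lists, in each input library (points) with the group mean (bar). GPNMB, CTSL and NEU1 in TiO2 (red) lie apart from untreated (grey) and BPQD (blue), whereas ULK1 lies left of untreated in both exposed groups.

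NF-kB is the transcription factor family through which cells turn on cytokines, adhesion molecules and their own inhibitors. Of 27 listed cytokines and NF-kB targets 14 were tested, of which 11 rose, mostly from low levels, and 1 fell (median 0.36). Interleukin 6 (IL6) read 1.08, 1.22 and 1.13 FPKM in untreated and 4.12, 3.67 and 3.77 FPKM in TiO2 libraries (1.18 ± 0.07, adjusted p = 2.19e-05). The chemokine CCL5 read 2.31, 2.86 and 2.96 FPKM and 5.37, 4.49 and 5.20 FPKM. The adhesion molecule ICAM1 read 19.3, 20.01 and 19.00 FPKM and 28.2, 27.9 and 28.3 FPKM. The feedback inhibitor TNFAIP3 rose by 0.52 ± 0.05. NFKBIA, the IkB alpha inhibitor, fell by 0.31 on this scale. CXCL8, CXCL1, IL1A, IL1B and CCL2 had a mean under 1 FPKM and were not tested. The count of 11 fell to 7 without the second untreated library.

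Interferon-stimulated genes, which limit viral RNA, rose in part. Of 20 tested, 9 rose and 3 fell (median 0.15). IFIT3 read 4.74, 5.12 and 4.42 FPKM in untreated and 11.2, 11.2 and 11.6 FPKM in TiO2 libraries (1.10 ± 0.07), and its neighbours IFIT2 and IFIT1 rose by 0.73 ± 0.06 and 0.40 ± 0.06. ISG15, a ubiquitin-like modifier, rose by 0.44 ± 0.06. IFITM1, OAS3 and BST2 fell by 0.30, 0.22 and 0.21 on this scale. MX1, RSAD2, OAS1, OAS2 and IFI27, which strong interferon signalling turns on, had a mean under 1 FPKM.

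Among immediate early genes, which respond to growth factor and stress kinases, 7 of 15 rose and 1 fell (median 0.30). The MAP kinase phosphatase DUSP5 read 6.82, 6.74 and 6.46 FPKM in untreated and 13.4, 13.6 and 13.8 FPKM in TiO2 libraries. DUSP4 rose by 0.86 ± 0.05 and DUSP1 by 0.46 ± 0.03. The AP-1 subunits FOSL1 and JUN rose by 0.80 ± 0.11 and 0.60 ± 0.05, and IER3 by 0.67 ± 0.04. JUNB fell by 0.31 on this scale, and FOS did not pass (0.04 ± 0.05). MYC read 1.65, 32.98 and 28.7 FPKM in untreated and 1.62, 1.73 and 26.4 FPKM in TiO2 libraries and did not pass (adjusted p = 0.542). Of 17 hypoxia targets 8 rose and none fell, or 1 without the first untreated library: the peptide hormone ADM read 12.8, 11.9 and 12.7 FPKM and 22.9, 23.7 and 21.5 FPKM, and HIF1A itself rose by 0.31 ± 0.02. CA9 (-0.11 ± 0.06) and VEGFA (0.05 ± 0.04), which low oxygen strongly turns on, did not pass.

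Chaperones of the cytosol and of the endoplasmic reticulum were among the abundant RNAs that rose. Of 20 heat shock chaperones 11 rose and 3 fell (median 0.14). HSP90AA1 read 443, 438 and 438 FPKM in untreated and 621, 685 and 618 FPKM in TiO2 libraries. HSPA4, HSPH1, HSPD1 and HSPA8 rose by 0.40 ± 0.02, 0.40 ± 0.03, 0.33 ± 0.02 and 0.47 ± 0.09. The acutely inducible HSPA1A read 248, 251 and 252 FPKM and 229.5, 32.2 and 230.3 FPKM and did not pass, and HSPA1B, its near-identical copy, fell by 0.16 on this scale; reads of the 2 copies may be split between them. The small chaperone HSPB1 fell by 0.19. Of 20 genes of the unfolded protein response 10 rose and 1 fell (median 0.18). HSPA5 (BiP), the main chaperone of the endoplasmic reticulum, read 199.98, 197 and 197 FPKM and 281, 282 and 277 FPKM (0.50 ± 0.01, adjusted p = 1.14e-06). HSP90B1, DNAJB11 and MANF rose by 0.52 ± 0.05, 0.36 ± 0.02 and 0.34 ± 0.02. HERPUD1 (-0.02 ± 0.15), XBP1 (0.19 ± 0.27) and DNAJB9 (0.14 ± 0.07) did not pass. Of 20 ATF4 targets 6 rose and 5 fell: STC2 and GDF15 rose by 0.63 ± 0.03 and 0.48 ± 0.06, while PHGDH and PSPH of serine synthesis fell by 0.36 and 0.28 on this scale. The call of PSPH was lost in 6 of 18 alternatives.

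Genes that guard against oxidants showed no common direction. Of 24 NRF2 targets 9 rose and 7 fell (median 0.07); without the first or the second untreated library 4 fell. The ferritin heavy chain FTH1, which stores iron, read 2972, 1538 and 2518 FPKM in untreated and 3867, 3857 and 3925 FPKM in TiO2 libraries, with the second untreated library far below the others. Its change was 0.78 ± 0.21; without that library it was 0.51. Its call was lost when any 1 TiO2 library was left out (adjusted p of 0.0520 to 0.0551) and after quantile normalization (0.46, adjusted p = 0.145). The call of FTH1 was also lost with no filter and in the fit of only the 6 TiO2 and untreated libraries. The light chain FTL read 2593, 2595 and 2552 FPKM and 3052, 2891 and 2922 FPKM, a smaller and tighter change of 0.20 ± 0.02 (adjusted p = 0.000319). Both ferritins together made up 1.87% to 2.50% of the summed FPKM in untreated and 3.07% to 3.15% in TiO2 libraries (exact two-sided permutation p = 0.1). The cystine transporter SLC7A11 rose by 0.33 ± 0.03 and haem oxygenase HMOX1 by 0.16 ± 0.04, the latter call lost without the first untreated library (adjusted p = 0.0515). NQO1 and the pentose phosphate enzyme TKT fell by 0.15 and 0.24 on this scale. Of 14 other antioxidant enzymes 2 rose (CAT and PRDX3, by 0.29 ± 0.04 and 0.22 ± 0.02) and 3 fell (PRDX2, TXNRD2 and GPX4). Of 12 iron and ferroptosis genes 4 rose and none fell: FTH1, FTL, ACSL4 and the iron regulatory aconitase ACO1 (0.54 ± 0.03). The metallothioneins MT2A and MT1X, which bind zinc and other metals, rose by 0.19 ± 0.02 and 0.21 ± 0.03, and MT1E fell by 0.08 on this scale, a call lost after quantile normalization (adjusted p = 0.0600).

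Some large rises fell outside these pathways. CCN3, a matricellular protein, read 3.99, 4.29 and 4.14 FPKM in untreated and 11.7, 11.95 and 11.9 FPKM in TiO2 libraries, and its relative CCN1 read 37.2, 36.8 and 36.1 FPKM and 58.4, 59.5 and 60.8 FPKM. The growth factor TGFB2 rose by 0.62 ± 0.04. RND3, a GTPase that loosens actin fibres, read 11.9, 10.5 and 10.6 FPKM and 28.95, 28.2 and 26.6 FPKM (1.27 ± 0.06). Other genes that regulate actin were divided, with 6 of 23 higher and 7 lower; TAGLN2 and FLNA fell by 0.40 and 0.38 on this scale. UBFD1 read 1.74, 1.70 and 1.87 FPKM in untreated and 6.95, 1.99 and 7.40 FPKM in TiO2 libraries: the second TiO2 library was near the untreated level, and the call was lost in 11 of the alternatives.

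RNA polymerase III makes small structural RNAs that act in RNA processing, protein targeting and transcription. Of 16 such transcripts listed, 13 were in the expression table and 6 passed the filter of 1 FPKM. All 6 fell, with a median of -1.98, and they include the largest falls of all named genes. The filter can keep a gene through the 1 group where it is high, so this count leans on it. RPPH1, the RNA of ribonuclease P, read 8.94, 8.74 and 8.66 FPKM in untreated and 0.915, 0.842 and 0.480 FPKM in TiO2 libraries (-2.50 ± 0.12, adjusted p = 1.04e-05). With every TiO2 and BPQD library under 1 FPKM, RPPH1 passed the filter only through its untreated level. RMRP, the RNA of the related RNase MRP, read 10.5, 14.4 and 14.4 FPKM and 1.59, 1.33 and 2.53 FPKM. RN7SK, which sequesters the elongation factor P-TEFb, read 38.4, 41.3 and 32.3 FPKM and 9.71, 3.74 and 7.51 FPKM. In each of these the groups were well apart, although the TiO2 libraries varied among themselves. BCYRN1 fell by 1.63 on this scale. RN7SL1 and RN7SL2, the RNAs of the signal recognition particle, fell by only 0.33 and 0.27 and share reads as near-identical copies. The summed level of the list was 623 to 658 FPKM in untreated and 407 to 410 FPKM in TiO2 libraries (exact two-sided permutation p = 0.1).

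Among the other large falls, SLC12A3, the sodium-chloride cotransporter, read 49.2, 48.9 and 50.01 FPKM in untreated and 21.2, 20.5 and 20.5 FPKM in TiO2 libraries (-1.21 ± 0.02, adjusted p = 8.91e-08). ID1, an inhibitor of differentiation and a target of BMP signalling, read 159, 151 and 158 FPKM and 77.2, 73.7 and 76.8 FPKM (-1.03 ± 0.03). ID3, named after its values were seen, fell by 0.90 on this scale, and the inhibitory SMAD7 by 0.46. BMF, a BH3-only protein that promotes cell death, read 3.66, 3.38 and 3.52 FPKM and 1.27, 0.538 and 1.19 FPKM. Of 14 genes of the BCL2 family 2 rose, MCL1 and HRK, and 4 fell. HRK was near the filter, with means of 0.747 FPKM in untreated, 1.49 in TiO2 and 0.896 in BPQD libraries. Every untreated and BPQD library was under 1 FPKM, so HRK passed the filter only through its TiO2 level. The pseudogene RPS24P17 read 35.1, 34.01 and 35.7 FPKM and 12.7, 12.4 and 11.8 FPKM, though its reads may be shared with RPS24. By the authors' deposited table, its m6A peak (chr16:56906534-56906956) lies within a peak of SLC12A3 (chr16:56904811-56913810). The falls of RPS24P17 and SLC12A3 may thus not be separate, which was not tested. LENG8 fell by 1.01. ABHD14B, FBXO41 and RAB40C also fell, by 1.66, 1.12 and 1.02, but 1 TiO2 library stood apart in each. For ABHD14B these libraries read 3.18, 16.6 and 2.59 FPKM against 19.1, 20.2 and 18.4 FPKM in untreated, and the calls of all 3 genes were lost in some alternatives.

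Genes that slow growth or act after DNA damage included several that fell. The antiproliferative gene BTG2 read 12.4, 11.9 and 12.2 FPKM in untreated and 7.24, 7.15 and 6.55 FPKM in TiO2 libraries (-0.72 ± 0.04, adjusted p = 1.79e-05). The DNA damage sensor DDB2 and the stress protein SESN2 fell by 0.51 and 0.33 on this scale, and the cell cycle inhibitor CDKN1A (p21) by 0.27. GADD45A rose by 0.51 ± 0.13, a call lost without the second or the third TiO2 library (adjusted p = 0.0540 and 0.0529). Of 20 DNA repair genes 6 rose and 2 fell, by at most 0.37. Cell cycle genes were divided, with 6 of 25 genes of G1/S and replication higher and 7 lower, and 7 of 25 genes of G2/M higher and 5 lower. Without the second untreated or the second TiO2 library 4 genes of G2/M were higher. The licensing factor CDT1 fell by 0.41 and the kinase PLK1 by 0.33, while CDC6 and BUB1 rose by 0.31 ± 0.07 and 0.26 ± 0.03.

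Of 23 collagens, laminins and integrins 10 fell and 7 rose. The fibrillar collagen COL5A1 read 61.7, 61.2 and 63.5 FPKM in untreated and 39.1, 38.6 and 39.5 FPKM in TiO2 libraries (-0.66 ± 0.02). COL1A1, LAMB2 and LAMA5 fell by 0.64, 0.60 and 0.49 on this scale, while LAMA4 and the integrin ITGB1 rose by 0.58 ± 0.06 and 0.52 ± 0.06. Of 9 tested epithelial markers 5 fell and none rose. The tight junction claudin CLDN7 read 16.5, 17.2 and 14.5 FPKM and 7.97, 8.47 and 7.45 FPKM (-0.93 ± 0.08, adjusted p = 0.00013). ABCA3, the lipid transporter of lamellar bodies, fell from 11.3, 11.9 and 11.4 to 7.96, 7.75 and 7.81 FPKM, and the keratins KRT18 and KRT7 by 0.28 and 0.23 on this scale. The summed level of the 13 epithelial markers was 1205 to 1291 FPKM in untreated and 987 to 1084 FPKM in TiO2 libraries (exact two-sided permutation p = 0.1). In bulk RNA, fewer cells of a type and less RNA per cell cannot be told apart. Of 10 fibroblast markers 4 were tested, with FAP higher (0.45 ± 0.07) and COL1A1 and PDGFRB lower, and their summed level of 29.3 to 29.8 FPKM in untreated and 28.0 to 37.7 FPKM in TiO2 libraries overlapped. Of 7 endothelial markers 2 were tested, and both were expressed. ENG read 12.2, 12.5 and 12.6 FPKM in untreated and 11.02, 10.4 and 11.2 FPKM in TiO2 libraries, a fall of 0.18. CDH5 read 3.08, 3.35 and 2.94 FPKM in untreated and 2.48, 2.04 and 3.73 FPKM in TiO2 libraries and did not pass. Without the third TiO2 library 2 fell. PECAM1 and VWF reached at most 0.186 and 0.0948 FPKM in any input library.

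**Figure D4:**
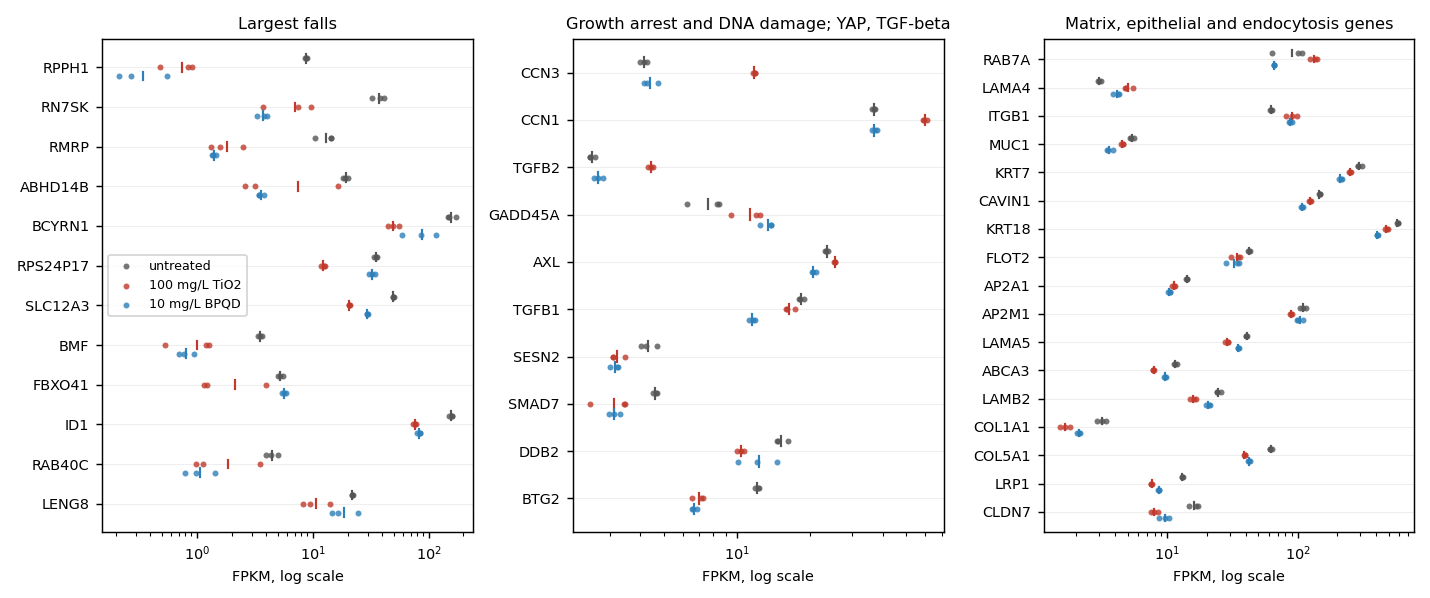
FPKM on a log scale of the 12 largest falls, of called genes of growth arrest and DNA damage and of YAP and TGF-beta targets, and of called matrix, epithelial and endocytosis genes, in each input library (points) with the group mean (bar). RPPH1, RN7SK and RMRP are low in both exposed groups; ABHD14B, FBXO41 and RAB40C each have 1 TiO2 library (red) near untreated.

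Of 25 ribosomal protein genes 11 fell and 4 rose (median -0.17). RPSA fell by 0.25 and RPLP2 by 0.24 on this scale, and RPL11 rose by 0.27 ± 0.03; with quantile normalization 6 fell. Nuclear genes of oxidative phosphorylation were divided, with 7 of 27 higher and 9 lower. Of 13 mitochondrially encoded mRNAs 1 fell, MT-ND5 (-0.24 ± 0.05), and none rose; without the third TiO2 library 3 rose, and without the third untreated library 2. MT-CO2 read 0, 46.98 and 49.9 FPKM in untreated and 56.3, 53.97 and 48.6 FPKM in TiO2 libraries and did not pass (adjusted p = 0.292); the first untreated library lists it at 0, where a gene that every cell uses can be a failed estimate. The summed level of the 13 was 334 to 437 FPKM in untreated and 409 to 454 FPKM in TiO2 libraries.

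N6-methyladenosine (m6A) is placed on mRNA by a methyltransferase complex around METTL3 and METTL14, removed by FTO and ALKBH5, and read by YTH-domain and IGF2BP proteins. Of 12 writers 3 rose, or 1 without the first TiO2 library, and 2 fell: METTL3 (0.15 ± 0.06) and METTL14 (0.29 ± 0.11) did not pass, ZC3H13 rose by 0.12 ± 0.03 and PCIF1, which methylates the cap, fell by 0.26 on this scale. Of 16 erasers and readers 5 rose, or 3 without the second untreated library, and 2 fell. ALKBH5 read 32.8, 32.8 and 34.9 FPKM in untreated and 28.7, 29.01 and 29.7 FPKM in TiO2 libraries, IGF2BP1 fell by 0.30, and FTO (-0.30 ± 0.27) did not pass.

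The authors' deposited table of m6A peaks gives, for TiO2 against untreated, a log2 change of methylation for 12888 peaks, of which 64.1% have an authors' p under 0.05. By the authors' deposited table, 5193 of these were higher and 3065 lower, with a median over all peaks of 0.15. At the sterol synthesis genes, most of whose RNAs rose, the authors' deposited table lists 17 peaks in 14 genes, of which 4 were higher and 10 lower at that p, with a median of -0.15. In the authors' deposited table the changes at most of them were small: -0.10 at HMGCS1 (chr5:43298495-43298974), -0.18 at FDFT1, and -0.15 and -0.18 at the overlapping peaks of FDPS. Larger values in the authors' deposited table went both ways. They included 1.80 at CYP51A1 and 0.98 at IDI1, at peaks annotated to the 5' UTR, by the authors' deposited table. By the authors' deposited table MVK had -2.10 (authors' p = 0.0302), at a peak annotated to an exon. Peaks at cathepsin L (CTSL) were lower by the authors' deposited table in both UTRs, at -0.20 and -0.15. At genes of the m6A writers the authors' deposited table lists 11 peaks, 10 higher and 1 lower. Peaks can span introns, and the table gives no value per replicate for the methylation change. Methylation is measured relative to input RNA, so its changes are only partly independent of the RNA changes.

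BPQD was given at 10 mg/L and TiO2 at 100 mg/L, so that the material and the dose cannot be told apart in what follows; both groups share the untreated controls. In the direct test of TiO2 against BPQD, 18.6% of the 12224 genes were higher in TiO2 and 19% lower. Of the 21 sterol synthesis genes 17 were higher in TiO2 and 1 lower (PMVK), with a median difference of 0.79. HMGCS1 read 13.98, 12.4 and 14.5 FPKM in BPQD libraries, near the untreated level, and ACAT2 read 11.2, 10.96 and 11.5 FPKM, below it. Of the 17 V-ATPase subunits 11 were higher in TiO2 than in BPQD and none lower, and of the 38 hydrolases 17 were higher and 1 lower. Against untreated, the median of the hydrolases was 0.09 in TiO2 and -0.12 in BPQD. That of the V-ATPase subunits was 0.20 in TiO2 and -0.02 in BPQD, and that of the sterol synthesis genes 0.48 and -0.16. The differences for hydrolases and sterol synthesis thus include levels in BPQD that lay below untreated. GPNMB read 1.46, 1.64 and 1.44 FPKM in BPQD libraries and CTSL 75.3, 76.4 and 76.99 FPKM, both near untreated.

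Other genes lay on the same side of untreated in both exposed groups. RPPH1 read 0.557, 0.214 and 0.269 FPKM in BPQD libraries, below its TiO2 level (difference 0.37 ± 0.12, adjusted p = 0.0431). RMRP read 1.48, 1.38 and 1.35 FPKM and differed from TiO2 by 0.21 ± 0.17 (adjusted p = 0.372). BTG2 read 6.59, 6.55 and 6.88 FPKM, with a difference of 0.06 ± 0.04. HSPA5 read 273, 273 and 273 FPKM and differed by 0.04 ± 0.01 (adjusted p = 0.0776); of the 20 genes of the unfolded protein response 4 were higher in TiO2 and 1 lower. ULK1 read 6.02, 5.92 and 6.08 FPKM, with a difference of -0.06 ± 0.03. For these 5 genes neither exposed group overlapped untreated. IL6 read 3.14, 2.76 and 2.50 FPKM in BPQD libraries, between untreated and TiO2 (difference 0.36 ± 0.07, adjusted p = 0.00487).

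The largest differences between the exposed groups, among genes also changed by TiO2, were at GPNMB (1.78 ± 0.06), ACAT2 (1.70 ± 0.03) and FABP3 (1.67 ± 0.05) above BPQD, and at HOXC8 (-1.82 ± 0.05) and AL354836 (-1.62 ± 0.07) below it, the latter with a call against untreated that was lost in 10 alternatives. LINC00641 followed, with a difference of -1.54 ± 0.06. For some of these, TiO2 and BPQD lay on opposite sides of untreated. PSCA, a surface antigen, read 71.96, 68.8 and 70.5 FPKM in untreated, 99.3, 96.5 and 96.2 FPKM in TiO2 and 37.1, 37.1 and 38.5 FPKM in BPQD libraries. HOXC8, a homeobox factor, read 2.72, 2.34 and 2.30 FPKM in untreated, 1.49, 1.31 and 1.38 FPKM in TiO2 and 7.27, 7.46 and 7.57 FPKM in BPQD libraries. TGM2, a transglutaminase, read 9.53, 9.75 and 9.69 FPKM in untreated, 16.7, 15.5 and 16.8 FPKM in TiO2 and 6.12, 6.16 and 6.03 FPKM in BPQD libraries. For PSCA and TGM2 untreated lay between a higher TiO2 and a lower BPQD group, and for HOXC8 between a lower TiO2 and a higher BPQD group.

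**Figure D5:**
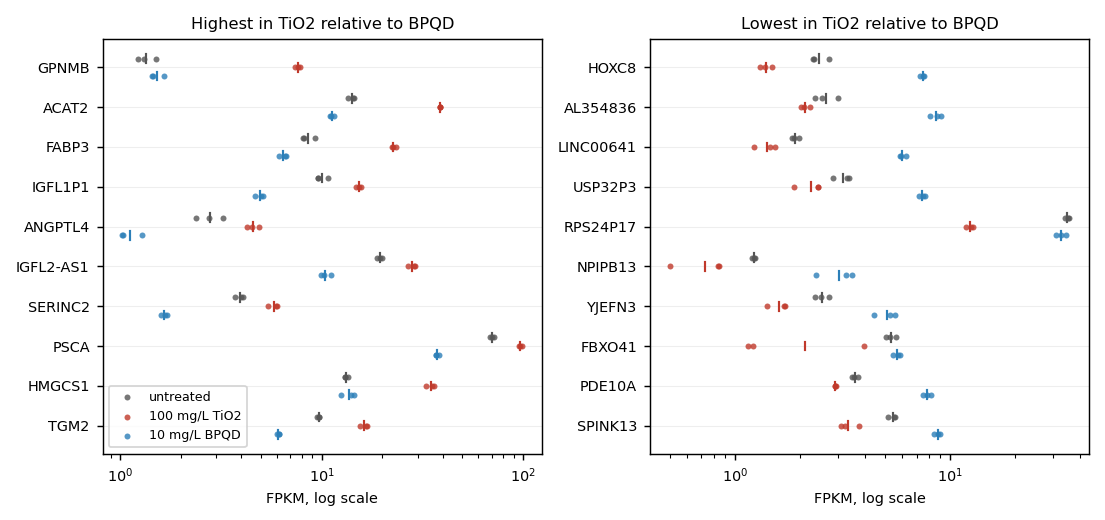
FPKM on a log scale of the 10 genes highest and the 10 lowest in TiO2 relative to BPQD among genes called in that contrast and in TiO2 against untreated, in each input library (points) with the group mean (bar). PSCA, TGM2 and SERINC2 have untreated (grey) between TiO2 (red) and BPQD (blue), as HOXC8 does in the other order.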

How the data were processed

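The authors deposited FPKM per gene for the 9 input libraries, per the file headers; the submitters' processing notes name StringTie 1.3.0 and HISAT2, the latter with no version. Those notes name mm10, but the gene IDs are human, and 94.4% of 11097 symbols matched to RefSeq start within 10000 bases of their GRCh38.p14 position, so coordinates are read as GRCh38. Column names gave each library's group, and 12 other columns of per-sample values were not used. Genes averaging 1 FPKM or more over the 9 libraries were fitted in limma 3.58.1 (R 4.3.3) on log2(FPKM + 1), with group means over all 9 libraries and a trend in the variance; tests are two-sided and adjusted by Benjamini-Hochberg over all 12224 genes. The test was checked on simulated data. Errors of fold changes are SE with n = 3 per group. Of the authors' deposited peak table, the log2 change of m6A and its p-value were used. Depth in reads is unknown, so precision rests on the 3 libraries. Genes and the 45 lists were chosen with earlier results of these data known. The rule for named genes took the 12 largest rises and falls with no overlap and at least 2 FPKM, every tested sterol synthesis, sensing and uptake gene, up to 6 called genes of each other list, and the 10 largest differences from BPQD in each direction. Other list members in the text, such as CDKN1A, GAA, FASN and TFEB, were chosen after their values were seen. Some genes are not reported here. For gene-level alternatives the filter, pseudocount, scaling, fit and each library were varied.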

Additional observations from a re-analysis of the deposited data

How the results depend on the processing

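Of 255 named genes called in TiO2 against untreated, 223 kept the call in each of the 18 alternatives that tested them (genes averaging under 5 FPKM drop out with the 5 FPKM filter), and none of the 265 named genes reversed with a call. Most named genes were picked for large called changes, so 223 of 255 does not describe all 4614 called genes. The count of changed genes was 4614, and 4574 with a pseudocount of 0.1, 3902 with no filter, 4543 after rescaling to TPM, 4558 after median centring, 4482 after quantile normalization, 4355 in a fit of only the 6 libraries and 4620 without the variance trend. Of these, the share that was higher ran from 45.3% with no filter to 51.1% after quantile normalization. With a filter of 5 FPKM 1564 genes were lower in place of 2503, since fewer genes were tested. Leaving out 1 library at a time gave 3754 to 4503 changed genes. With the replicate block 4160 genes changed; same-numbered libraries of different groups correlated in their deviations at only -0.083 to 0.073, so the numbers were not taken as pairs. List members that differed between TiO2 and BPQD numbered 369, and 303 to 381 under the alternatives. With the 5 FPKM filter 3 genes of the cytokine list rose.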
